A study of Homo sapiens with 12 samples.

Results

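The respiratory chain and the ATP synthase were examined as 74 genes, chosen as probe sets that the array's annotation assigns to a single gene with a symbol beginning NDUF (complex I), UQCR (complex III), COX followed by a digit (complex IV) or ATP5 (complex V). They were 74 of the 11963 genes that a single-gene probe set names, and came from 106 probe sets, of which the probe set with the highest mean was used for each gene. By role they were 61 subunits, 10 assembly factors, 1 inhibitor (ATP5IF1), 1 pseudogene (ATP5MC2P1) and 1 antisense RNA (NDUFB2-AS1). Complex I had 34 of them, complex III had 6, and complexes IV and V had 17 each. A filter on low values was passed by 70 members, 31, 6, 16 and 17 in the same order.

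The respiratory chain sits in the inner mitochondrial membrane. Complex I takes electrons from NADH, complex III passes them from ubiquinol to cytochrome c, and complex IV hands them to oxygen, while protons are pumped out of the matrix. Complex V, the ATP synthase, lets protons back through a rotating ring of c subunits and makes ATP in its F1 head. Most subunits are encoded in the nucleus and imported, and a few core subunits are made from mitochondrial DNA. The members described here are nuclear genes, so their transcripts are a measure of the supply of imported subunits and not of the assembled complexes.

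Total RNA of K562, an established line from a chronic myeloid leukaemia with the BCR-ABL1 fusion kinase, was hybridized to 12 Affymetrix expression arrays. Cells were exposed for 24 h to 0.05 µM nilotinib (AMN107, arrays numbered 1 to 4), to 0.5 µM imatinib (STI571, arrays 5 to 8) or to the solvent DMSO alone (arrays 9 to 12), all in the same medium with serum. Both drugs inhibit the ABL kinase. The doses differed, each being called an IC50 by the labels, so the comparison of the drugs is one of these 2 treatments and not of equal concentrations. The labels do not say that arrays came from separate cultures, so each p-value is set against the scatter of these arrays alone, and that scatter may be technical.

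The arrays themselves moved with the groups. The median signal of an array was 166 to 194 with nilotinib, 135 to 155 with imatinib and 117 to 121 with DMSO. The 3'/5' ratio of the actin control was 1.82 to 5.49 with nilotinib, 2.04 to 5.24 with imatinib and 2.66 to 3.34 with DMSO, and it was above 3.5 on nilotinib arrays 1 and 2 and imatinib arrays 5 and 6. The 8 K562 markers measured all passed the filter. The summed signal of these erythroid markers was 63315 to 71109 with nilotinib, 55745 to 62995 with imatinib and 27430 to 31701 with DMSO. Signals of single markers ranged from 322 to 26457, so the sums mainly follow the brightest markers and do not describe each one. Lymphocyte, monocyte and granulocyte, and fibroblast markers had no signal above 427 on any array. Among those, the 5 monocyte and granulocyte markers summed to 377 to 733 with nilotinib, 226 to 375 with imatinib and 58.8 to 167 with DMSO. The 5 fibroblast markers summed to 700.1 to 773 with nilotinib, 324 to 622 with imatinib and 308 to 566 with DMSO, and the 5 lymphocyte markers with a probe set to 465 to 954, 274 to 700.1 and 544 to 669 in the same order. The part of these shifts in the results below was not tested. In RNA from a whole culture, fewer cells of a type and less RNA per cell cannot be told apart.

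Differences are given as log2 fold changes of log2(signal + 16) with their standard errors from limma, and a gene was called when its p-value, adjusted by Benjamini and Hochberg over the 8021 genes tested, was under 0.05. With 4 arrays in a group the median standard error over all genes was 0.15 on the log2 scale.

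With nilotinib, complex I transcripts were the most affected members. Against DMSO 23 of the 31 complex I members tested were lower and 0 were higher, with a median log2 fold change of -0.33, where the median of all genes was 0.15. After quantile normalization complex I had 14 lower and 4 higher (NDUFA5, NDUFB1, NDUFS4 and NDUFV2), and after cyclic loess 16 lower and 3 higher. In complex V 10 of 17 were lower and 3 higher (median -0.16), in complex IV 6 of 16 were lower and 1 higher (median -0.10), and in complex III 2 of 6 were lower and 2 higher (median -0.07). The 3 higher in complex V were the subunit ATP5F1E, the inhibitor ATP5IF1 and the pseudogene ATP5MC2P1. Of the 15 complex V subunits 10 were lower and 1 higher. Over all 70 members 41 were lower and 6 higher, against a background in which 23.5% of all genes were called lower and 34.7% higher. With 1 array left out the lower members numbered 30 to 40. They numbered 30, with 18 in complex I, without DMSO array 12, where 1766 of all genes were lower. Without DMSO array 9 the higher members numbered 3. The nilotinib and DMSO arrays did not overlap for 41 members, and for 50.7% of all genes.

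With imatinib the members moved in both directions and by less. Against DMSO 13 of 70 members were lower and 11 higher, a share close to the background of 17.3% of all genes lower and 22% higher. Without DMSO array 12 the lower members numbered 8. Complex I held 10 of the lower members and 4 of the higher ones (median -0.09), a balance that turned round after quantile normalization, with 4 lower and 7 higher. Complex III had 1 lower and 2 higher, complex IV had 0 lower and 1 higher, and complex V had 2 lower and 4 higher, with medians of 0.09, 0.03 and -0.00 where the median of all genes was 0.09. Of the 15 complex V subunits 2 were lower and 2 higher. The groups did not overlap for 23 members, and for 39.1% of all genes.

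Set directly against imatinib, nilotinib gave 27 of 70 members lower and 0 higher, where 8.22% of all genes were lower and 5.82% higher. The lower members were 17 of complex I, 3 of complex III, 4 of complex IV and 3 of complex V. With 1 array left out they numbered 20 to 27. They numbered 20 without nilotinib array 4 or imatinib array 8, where 511 and 536 of all genes were lower. The medians were -0.28 for complex I, -0.14 for complex III, -0.14 for complex IV and -0.16 for complex V, beside 0.05 for all genes. The arrays of the drugs did not overlap for 31 members, and for 18% of all genes.

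**Figure D1:**
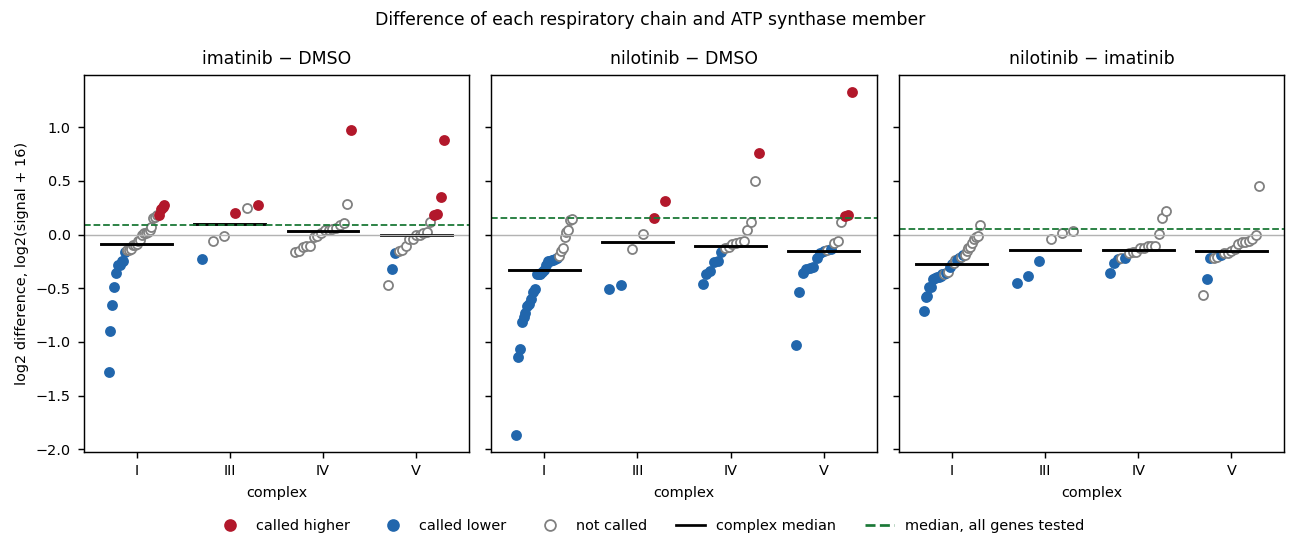
Log2 difference of each of the 70 tested members (y axis) by complex (x axis) for imatinib minus DMSO, nilotinib minus DMSO and nilotinib minus imatinib. Filled points were called, black bars are medians of a complex and the dashed line is the median of all genes tested; in complex I with nilotinib 23 of 31 points are called lower and 0 higher on the values as deposited, against 14 and 4 after quantile normalization.

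The assembly factors of complex I held the largest falls of any member against DMSO. NDUFAF4, a factor that acts early in the assembly of complex I, had signals of 659.8, 613, 725 and 591 on the nilotinib arrays, 968, 1097, 967 and 877 on the imatinib arrays and 2404, 2374, 2331 and 2458 on the DMSO arrays. The 3 groups did not overlap, with nilotinib lowest, imatinib between and DMSO highest. Its log2 fold change against DMSO was -1.86 ± 0.09 with nilotinib (limma adjusted p = 2.05e-12) and -1.28 ± 0.09 with imatinib (adjusted p = 8.33e-10). The difference of nilotinib from imatinib was -0.58 ± 0.09 (adjusted p = 0.000347).

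NDUFAF1, which helps to build the membrane arm of complex I, had 268, 334, 349 and 388 with nilotinib, 465, 358, 377 and 389.9 with imatinib and 634, 649.9, 887 and 865 with DMSO. All 8 drug arrays lay below all DMSO arrays, and the drugs overlapped each other. It fell by 1.14 ± 0.15 on the log2 scale with nilotinib (limma adjusted p = 2.51e-06) and by 0.90 ± 0.15 with imatinib (adjusted p = 6.48e-05). The drugs differed by -0.24 ± 0.15, which was not called (adjusted p = 0.274). NDUFAF3, a further assembly factor, was not called in any comparison, with log2 fold changes of -0.20 for nilotinib and 0.07 for imatinib against DMSO. NDUFAF5 and NDUFAF7 lay below the filter with signals of 7.13 to 62.9 and 35.0 to 129, and were not tested.

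Among the core subunits of the arm of complex I that takes up electrons, NDUFS1 carries iron-sulfur clusters. It had signals of 1174, 931, 1072 and 1094 with nilotinib, 1195, 1351, 1017 and 1088 with imatinib and 1915, 2022, 1752 and 1645 with DMSO. Both drug groups lay below DMSO and overlapped each other. NDUFS1 fell by 0.77 ± 0.10 with nilotinib (limma adjusted p = 2.85e-06) and by 0.65 ± 0.10 with imatinib (adjusted p = 3.25e-05), and the drugs differed by -0.12 ± 0.10 (adjusted p = 0.447).

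NDUFV1, the flavin-bearing subunit where NADH binds, averaged 1934 ± 242 with nilotinib, 2529.9 ± 311 with imatinib and 3064 ± 118 with DMSO (SD, n = 4 each). The nilotinib arrays were all below the DMSO arrays, and nilotinib and imatinib overlapped. It fell by 0.67 ± 0.10 with nilotinib (limma adjusted p = 9.60e-06). With imatinib it fell by 0.28 ± 0.10 (adjusted p = 0.0247), a call lost without imatinib array 6 or without DMSO array 10 (adjusted p up to 0.0996). The third core subunit named here, NDUFS7, which carries the last iron-sulfur cluster before ubiquinone, had 755, 557, 999 and 628 with nilotinib, 898, 957, 997 and 878 with imatinib and 1319, 1258, 1052 and 1180.0 with DMSO. It fell by 0.73 ± 0.14 with nilotinib (adjusted p = 0.000159). The fall of 0.36 ± 0.14 with imatinib (adjusted p = 0.0426) was lost in 7 of the 12 fits that left out 1 array, those without imatinib array 5, 6, 7 or 8 or without DMSO array 9, 10 or 12 (adjusted p up to 0.118). NDUFV2 and NDUFS3, also core subunits of that arm, changed less. NDUFV2 was not called with nilotinib (0.02 ± 0.07) or imatinib (0.18 ± 0.07) against DMSO. After quantile normalization it was higher with both drugs. NDUFS3 gave -0.05 ± 0.09 with imatinib, not called, and fell by 0.24 ± 0.09 with nilotinib (limma adjusted p = 0.0258). That call was lost after quantile normalization, after cyclic loess and without nilotinib array 1 or 4 or DMSO array 11 or 12.

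The accessory subunits of complex I included the largest fall of a subunit. NDUFS6, a zinc-binding accessory subunit of the electron input module, was singled out after its values were seen. Its signals were 2692, 2884, 2706 and 2528 with nilotinib, 3924, 4616, 3802 and 3834 with imatinib and 5274, 5886, 5648 and 5839 with DMSO. As for NDUFAF4, the 3 groups were apart with imatinib in the middle. The log2 fold change was -1.06 ± 0.07 for nilotinib (limma adjusted p = 3.38e-10) and -0.49 ± 0.07 for imatinib against DMSO (adjusted p = 2.00e-05), and -0.58 ± 0.07 for nilotinib against imatinib (adjusted p = 5.21e-05).

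NDUFA7, another accessory subunit, had the largest difference between the drugs among the members. It had 1065, 1004, 986 and 1114 with nilotinib, 1895, 1667, 1647 and 1669.7 with imatinib and 1597, 1782, 1839 and 2183 with DMSO. Every nilotinib array was below every other array, while imatinib and DMSO overlapped. Nilotinib against imatinib gave -0.71 ± 0.09 (limma adjusted p = 6.98e-05) and nilotinib against DMSO gave -0.81 ± 0.09 (adjusted p = 4.46e-07). Imatinib against DMSO gave -0.10 ± 0.09 (adjusted p = 0.423), with an interval at the 95% level of -0.29 to 0.09.

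NDUFAB1, the mitochondrial acyl carrier protein that is also a complex I subunit, was likewise singled out after its values were seen. It averaged 5569 ± 454 with nilotinib, 7794 ± 207 with imatinib and 8732 ± 369.7 with DMSO (SD, n = 4 each), with no overlap between the 3 groups. It fell by 0.65 ± 0.06 with nilotinib against DMSO (limma adjusted p = 6.23e-08) and by 0.49 ± 0.06 with nilotinib against imatinib (adjusted p = 8.20e-05). Its fall of 0.16 ± 0.06 with imatinib (adjusted p = 0.0473) was lost in 6 of 12 fits without 1 array, namely imatinib array 5, 7 or 8 or DMSO array 10, 11 or 12 (adjusted p up to 0.136).

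A few accessory subunits were higher with imatinib. NDUFA2 had 2903, 2988, 2676 and 2608 with nilotinib, 3728, 3573, 3785 and 3639 with imatinib and 2827, 3076, 3128 and 3128 with DMSO. The imatinib arrays stood above both other groups, which overlapped each other. It rose by 0.28 ± 0.07 with imatinib against DMSO (limma adjusted p = 0.00227), and nilotinib was lower than imatinib by -0.40 ± 0.07 on the log2 scale (adjusted p = 0.000746). NDUFB1, a small subunit of the membrane arm, averaged 5834 ± 293 with nilotinib, 6779 ± 231 with imatinib and 5670.1 ± 427 with DMSO (SD, n = 4 each) and rose by 0.26 ± 0.06 with imatinib (adjusted p = 0.00312). Its difference of -0.22 ± 0.06 between nilotinib and imatinib (adjusted p = 0.0310) was lost without nilotinib array 3 or 4 or without imatinib array 5, 6 or 8 (adjusted p up to 0.0910).

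NDUFB2 and NDUFB11, also of the membrane arm, were called in opposite directions against DMSO. NDUFB2 had 2541, 2958, 2779 and 2866 with nilotinib, 3626, 3783, 3604 and 3709.7 with imatinib and 3120.0, 3284, 3214 and 3393 with DMSO, so that nilotinib lay lowest and imatinib highest with no overlap. Its log2 fold change was -0.22 ± 0.06 with nilotinib (limma adjusted p = 0.00565) and 0.18 ± 0.06 with imatinib (adjusted p = 0.0327), and the drugs differed by -0.40 ± 0.06 (adjusted p = 0.000535). For NDUFB11 the values were -0.25 ± 0.08 with nilotinib (adjusted p = 0.0119), 0.24 ± 0.08 with imatinib (adjusted p = 0.0214) and -0.49 ± 0.08 between the drugs (adjusted p = 0.000664).

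The difference between the drugs was called for both genes after quantile normalization too (-0.30 and -0.38, adjusted p = 0.00558 and 0.00295), though a dimmer NDUFB2 probe set was not called (-0.17 ± 0.08). The differences of nilotinib from DMSO after quantile normalization were -0.06 for NDUFB2 (adjusted p = 0.448) and -0.08 for NDUFB11 (adjusted p = 0.404). The rise of NDUFB2 with imatinib was lost without imatinib array 6 or 8 or without DMSO array 9, 10 or 11 (adjusted p up to 0.0883). For NDUFB11 the rise was lost without imatinib array 5 or 6 or without DMSO array 9 or 10 (adjusted p up to 0.0717), and the fall with nilotinib without DMSO array 12 (adjusted p = 0.0543).

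NDUFA1, an accessory subunit needed for assembly of the membrane arm, averaged 6668 ± 445 with nilotinib, 7832 ± 138 with imatinib and 7835 ± 343 with DMSO (SD, n = 4 each). It fell by 0.23 ± 0.06 with nilotinib against DMSO (limma adjusted p = 0.00263), and that call too was lost after quantile normalization (-0.05, adjusted p = 0.448). NDUFA6 and NDUFB8 were singled out because their probe sets disagreed in a fit over all probe sets. NDUFA6, a partner of the acyl carrier protein, had on the probe set used -0.60 ± 0.06 with nilotinib and -0.24 ± 0.06 with imatinib against DMSO, and on a dimmer probe set 0.34 ± 0.09 and 0.41 ± 0.09. NDUFB8, a membrane arm subunit, had -0.35 ± 0.08 and -0.31 ± 0.07 with nilotinib on its brighter probe sets and 1.05 ± 0.16 on its dimmest. Among 21 members with several probe sets, NDUFA6, NDUFB8 and ATP5MC2 were the 3 called both ways with nilotinib, and NDUFA6 the 1 called both ways with imatinib.

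By family within complex I, nilotinib against DMSO was lower for 8 of 11 NDUFA subunits (log2 fold changes -0.81 to 0.14), 7 of 9 NDUFB subunits (-0.37 to 0.04), 4 of 5 NDUFS subunits (-1.06 to 0.14), 1 of 2 NDUFV subunits (-0.67 and 0.02) and 2 of 3 assembly factors. Imatinib was lower for 3 of 11 NDUFA, 1 of 9 NDUFB, 3 of 5 NDUFS and 1 of 2 NDUFV subunits, and higher for 1 NDUFA and 3 NDUFB subunits. Of all genes 23.5% were lower with nilotinib, and 17.3% were lower and 22% higher with imatinib. After quantile normalization the lower calls with nilotinib were 5 of 11 NDUFA, 2 of 9 NDUFB (NDUFB6 and NDUFB8), 3 of 5 NDUFS and 1 of 2 NDUFV subunits, with 1 higher call in each family, so the NDUFB count was then near the share of 25.9% of all genes called lower. The 1 lower NDUFB call with imatinib was NDUFB3, which was lost after quantile normalization (-0.17, limma adjusted p = 0.146), after cyclic loess (adjusted p = 0.0517) and without imatinib array 5, 7 or 8 or DMSO array 12 (adjusted p up to 0.144). Nilotinib was lower than imatinib for 8 of 11 NDUFA and 5 of 9 NDUFB subunits, and for 1 of 5 NDUFS subunits, where 8.22% of all genes were. After quantile normalization the counts were 6, 2 and 1, where 7.88% of all genes were.

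**Figure D2:**
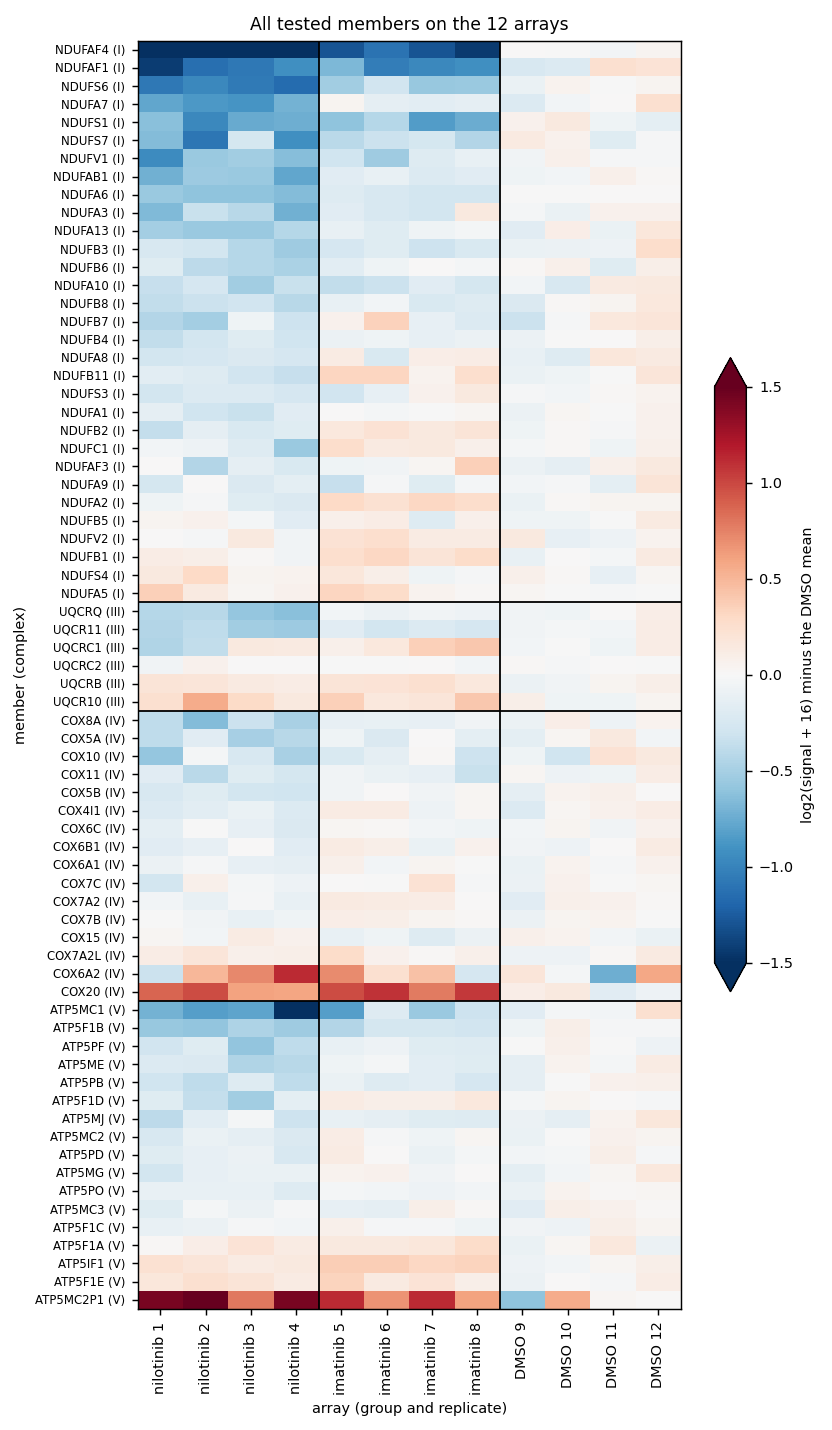
Log2(signal + 16) of the 70 tested members (y axis, with the complex in brackets) minus the DMSO mean on each of the 12 arrays (x axis), sorted within each complex by the fold change of nilotinib. Blue is below and red above the DMSO mean, and the scale is clipped at 1.5 in both directions; the upper block of complex I is blue on all 4 nilotinib arrays, while on the imatinib arrays NDUFAF4, NDUFAF1, NDUFS1 and NDUFS6 are the clearest.

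Promoters are shown for NDUFAF4 and NDUFS6, the assembly factor and the subunit of complex I with the largest falls with nilotinib. Promoters were examined because most complex I members were lower with nilotinib as deposited. Nuclear respiratory genes are known to be served by the factors NRF1, GABP (an ETS factor) and YY1. RefSeq windows from 250 bases before to 50 after a gene's start (GRCh38.p14) were found for 65 of the 74 members and searched on both strands for GCGCATGC (NRF1), CCGGAAGT (ETS) and AAGATGGC (YY1). Of 83 windows of the members 18.1% held the NRF1 letters, beside 3.05% of all 35116 windows. The ETS letters were in 13.3% of the members' windows and 4.14% of all windows, and the YY1 letters in 15.7% and 2.89%. Of the tested members 13 had the NRF1 letters and 10 of these were lower with nilotinib, 11 had the ETS letters and 9 were lower, and 12 had the YY1 letters and 9 were lower. Beside these, 28 of the 49 tested members with a window but no NRF1 letters were lower, 29 of 51 without the ETS letters and 29 of 50 without the YY1 letters, where 41 of all 70 members and 23.5% of all genes were. These counts are a description without a test, and a match is a run of letters and not a measured binding site. NDUFAF1, whose fall with nilotinib lay between those of NDUFAF4 and NDUFS6, is not printed. It was not among the members found with any of these letters. NDUFAF4 and NDUFS6 are given 5′ to 3′ in the direction of the gene, at chr6:96897842-96898141 (minus strand) and chr5:1801157-1801456 (plus strand), with the NRF1 letters in capitals.
NDUFAF4: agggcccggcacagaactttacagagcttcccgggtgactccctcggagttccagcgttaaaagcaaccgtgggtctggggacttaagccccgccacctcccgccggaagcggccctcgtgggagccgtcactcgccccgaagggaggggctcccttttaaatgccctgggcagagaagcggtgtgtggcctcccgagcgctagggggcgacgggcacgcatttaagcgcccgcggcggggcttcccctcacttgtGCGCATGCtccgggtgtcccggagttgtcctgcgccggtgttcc
NDUFS6: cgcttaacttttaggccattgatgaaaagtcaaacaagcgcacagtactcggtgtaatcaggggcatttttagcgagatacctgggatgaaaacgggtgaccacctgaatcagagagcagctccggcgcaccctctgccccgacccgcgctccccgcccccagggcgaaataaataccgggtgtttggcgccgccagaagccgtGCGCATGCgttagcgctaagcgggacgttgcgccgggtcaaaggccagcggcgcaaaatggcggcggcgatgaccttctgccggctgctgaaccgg

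In complex III the 6 subunits split. UQCRQ, a small accessory subunit, had 4432, 4485, 3990.3 and 3854 with nilotinib, 5807, 5617, 5753 and 5657 with imatinib and 5769, 5717, 5990.0 and 6418 with DMSO. Nilotinib lay below both other groups, which overlapped. It fell by 0.51 ± 0.06 with nilotinib against DMSO (limma adjusted p = 1.76e-06) and by 0.45 ± 0.06 against imatinib (adjusted p = 0.000214), while imatinib against DMSO gave -0.06 ± 0.06 (adjusted p = 0.460).

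UQCR11, likewise an accessory subunit, had 4642, 4854, 4391 and 4334 with nilotinib, 5588, 5212, 5485 and 5274 with imatinib and 6097, 6172, 6154 and 6841 with DMSO. The 3 groups did not overlap, and imatinib stood in the middle. It fell by 0.47 ± 0.06 with nilotinib (limma adjusted p = 2.94e-06) and by 0.23 ± 0.06 with imatinib (adjusted p = 0.00599). The difference between the drugs was -0.24 ± 0.06 (adjusted p = 0.0135) and was not called after quantile normalization (-0.12, adjusted p = 0.179).

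UQCR10 and UQCRB were higher with both drugs. UQCR10, another small accessory subunit, had 4836, 6033, 5017 and 4536 with nilotinib, 5254, 4586, 4629 and 5409 with imatinib and 4364, 3912, 3923 and 4201 with DMSO. All drug arrays were above all DMSO arrays. It rose by 0.31 ± 0.08 with nilotinib (limma adjusted p = 0.00383) and by 0.27 ± 0.08 with imatinib (adjusted p = 0.0129). UQCRB, which contributes to ubiquinone binding, rose by 0.16 ± 0.05 with nilotinib (adjusted p = 0.0198, lost without DMSO array 9 or 10, with adjusted p up to 0.0577) and by 0.20 ± 0.05 with imatinib (adjusted p = 0.00677).

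The core proteins of complex III were less clear. UQCRC1 had 1101, 1164, 1672 and 1657 with nilotinib, 1591, 1689, 1947 and 2000.1 with imatinib and 1465, 1503, 1443 and 1639 with DMSO, so nilotinib arrays 1 and 2, those with a high actin ratio, were the low ones. Nilotinib was lower than imatinib by -0.39 ± 0.12 (limma adjusted p = 0.0424). That call was lost in 8 of 12 fits without 1 array, those without nilotinib array 1 or 2, imatinib array 6, 7 or 8 or DMSO array 9, 10 or 11 (adjusted p up to 0.123). UQCRC2 had a log2 fold change of 0.00 ± 0.05 with nilotinib and -0.01 ± 0.05 with imatinib against DMSO, and was not called. Its dimmer probe set, of mean signal 2731, was lower with both drugs (-0.25 ± 0.06 with nilotinib, limma adjusted p = 0.00231, and -0.27 ± 0.06 with imatinib, adjusted p = 0.00214), so the gene is uncertain.

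The promoter windows of UQCRQ, the lowest with nilotinib, and UQCR10, higher with both drugs, are set side by side, at chr5:132866392-132866691 (plus strand) and chr22:29767119-29767418 (plus strand) of GRCh38.p14. The capitals mark the ETS letters in UQCRQ, and none of the 3 motifs was in the UQCR10 window.
UQCRQ: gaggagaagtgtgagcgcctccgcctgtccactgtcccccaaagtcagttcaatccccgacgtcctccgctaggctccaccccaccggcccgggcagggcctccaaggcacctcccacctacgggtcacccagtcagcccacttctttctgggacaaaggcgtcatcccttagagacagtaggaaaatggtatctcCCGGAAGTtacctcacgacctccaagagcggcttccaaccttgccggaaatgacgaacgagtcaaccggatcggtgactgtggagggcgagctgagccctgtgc
UQCR10: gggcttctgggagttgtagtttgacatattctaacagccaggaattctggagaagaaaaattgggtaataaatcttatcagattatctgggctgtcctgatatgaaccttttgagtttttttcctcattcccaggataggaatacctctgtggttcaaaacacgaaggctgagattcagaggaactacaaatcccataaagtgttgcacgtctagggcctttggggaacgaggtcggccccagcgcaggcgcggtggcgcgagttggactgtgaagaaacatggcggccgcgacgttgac

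In complex IV 4 of the 11 subunits tested were lower with nilotinib, where 23.5% of all genes were. With imatinib 0 were called, where 17.3% of all genes were lower and 22% higher. COX8A, a small subunit of the membrane part, had 5412, 4476, 5616 and 5027 with nilotinib, 6452, 6497, 6458 and 6757 with imatinib and 6628, 7553, 6681 and 7277 with DMSO. Nilotinib was below both other groups, which overlapped. It fell by 0.46 ± 0.07 against DMSO (limma adjusted p = 2.22e-05) and by 0.35 ± 0.07 against imatinib (adjusted p = 0.00320), and imatinib against DMSO gave -0.10 ± 0.07 (adjusted p = 0.266, interval -0.25 to 0.04).

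COX5A and COX5B, nuclear-encoded subunits around the catalytic core, averaged 8178 ± 810.4 and 9059 ± 316 with nilotinib, 9796 ± 650.4 and 10623 ± 298 with imatinib and 10541 ± 904 and 10782 ± 677 with DMSO (SD, n = 4 each). COX5A fell by 0.37 ± 0.08 (limma adjusted p = 0.000474) and COX5B by 0.25 ± 0.06 (adjusted p = 0.00120) with nilotinib against DMSO. Against imatinib COX5B fell by 0.23 ± 0.06 (adjusted p = 0.0134). A second COX5B probe set, of mean signal 7069, was not called with nilotinib against DMSO (-0.07 ± 0.06), and another, of mean signal 5837, was lower (-0.59 ± 0.07). The fall of COX5A against imatinib by 0.26 ± 0.08 (adjusted p = 0.0292) was lost without nilotinib array 1, 3 or 4 or imatinib array 5 or 7 (adjusted p up to 0.0782).

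COX4I1, the regulatory subunit found in most tissues, was near the threshold. It fell by 0.17 ± 0.07 with nilotinib against DMSO (limma adjusted p = 0.0467) and the groups overlapped. The call was lost in 7 of 12 fits without 1 array, those without nilotinib array 1, 2 or 4, imatinib array 8 or DMSO array 10, 11 or 12 (adjusted p up to 0.147). Against imatinib it fell by 0.22 ± 0.07 (adjusted p = 0.0444), a call lost in 8 of the 12, those without nilotinib array 1, 2 or 4, imatinib array 5, 6 or 8 or DMSO array 10 or 11 (adjusted p up to 0.122).

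Tissue isoforms of complex IV were measured as pairs. COX6A1, the liver-type form, was not called against DMSO with nilotinib (-0.09 ± 0.06, limma adjusted p = 0.162) or imatinib (0.02 ± 0.06, adjusted p = 0.822). Its muscle counterpart COX6A2 had 93.8, 178, 211 and 282 with nilotinib, 209.8, 146, 171 and 99.6 with imatinib and 140.0, 119, 66.7 and 190.4 with DMSO, with all 3 groups overlapping. COX7A2 was not called either (-0.07 ± 0.06 with nilotinib and 0.09 ± 0.06 with imatinib against DMSO), and its muscle counterpart COX7A1 lay below the filter with signals of 5.05 to 86.9. COX7A2L, a related protein that joins complexes into supercomplexes, gave 0.12 ± 0.07 with nilotinib and 0.11 ± 0.07 with imatinib and was not called. After quantile normalization it was higher with nilotinib (0.27, adjusted p = 0.000744) and imatinib (0.16, adjusted p = 0.0426).

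The assembly factors of complex IV did not move together. COX20, which guards a mitochondrially encoded subunit during its insertion, had 231, 250.4, 189 and 187 with nilotinib, 250.4, 270.4, 216 and 265 with imatinib and 129, 134, 104 and 113 with DMSO. The drugs overlapped and both lay above DMSO. It rose by 0.97 ± 0.19 with imatinib (limma adjusted p = 0.000383). The rise of 0.76 ± 0.19 with nilotinib (adjusted p = 0.00215) was not called after quantile normalization (0.29, adjusted p = 0.224). COX11, which delivers copper, gave -0.26 ± 0.08 with nilotinib (adjusted p = 0.0112), a call lost after quantile normalization (-0.10, adjusted p = 0.275) and after cyclic loess (-0.14, adjusted p = 0.144). COX10, which acts in the synthesis of heme A, gave -0.34 ± 0.14 with nilotinib (adjusted p = 0.0490), with overlapping groups, and that call was kept only without nilotinib array 2 or DMSO array 10 and lost without any other array (adjusted p up to 0.154). COX15, which acts in the same synthesis, gave 0.04 ± 0.08 and was not called.

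The COX8A window, shown as that of the lowest complex IV member with nilotinib, lies at chr11:63974370-63974669 (plus strand) of GRCh38.p14. The capitals are the ETS letters on the opposite strand.
COX8A: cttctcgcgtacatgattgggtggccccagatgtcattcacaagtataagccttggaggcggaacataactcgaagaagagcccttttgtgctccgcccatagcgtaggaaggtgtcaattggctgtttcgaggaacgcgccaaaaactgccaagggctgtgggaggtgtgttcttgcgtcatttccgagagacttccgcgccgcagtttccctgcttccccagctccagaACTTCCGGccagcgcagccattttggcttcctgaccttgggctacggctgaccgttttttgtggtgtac

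In complex V 3 genes encode the same mature c subunit of the rotor. ATP5MC1 had 763, 704, 724 and 353 with nilotinib, 707, 1100.3, 851 and 1017 with imatinib and 1117, 1234, 1226 and 1495 with DMSO. All nilotinib and imatinib arrays were below DMSO, the drugs overlapped, and nilotinib array 4 stood far below the others of its group. ATP5MC1 fell by 1.03 ± 0.19 with nilotinib (limma adjusted p = 0.000137), a call that was kept without array 4. With imatinib it gave -0.47 ± 0.19, not called (adjusted p = 0.0552), and was called without nilotinib array 4 or imatinib array 6 (adjusted p down to 0.00540).

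ATP5MC2 averaged 6381 ± 274 with nilotinib, 7268 ± 373 with imatinib and 7196 ± 374 with DMSO (SD, n = 4 each), and its fall of 0.17 ± 0.06 with nilotinib (limma adjusted p = 0.0205) was lost after quantile normalization (-0.01, adjusted p = 0.890). That call was also lost without nilotinib array 1 or 4 or DMSO array 11 or 12 (adjusted p up to 0.0664). Its fall of 0.19 ± 0.06 against imatinib (adjusted p = 0.0468) was kept without nilotinib array 2, imatinib array 7 or DMSO array 9, and lost without any other array (adjusted p up to 0.120). ATP5MC3 averaged 8688 ± 443 with nilotinib, 8948 ± 699 with imatinib and 9198 ± 731 with DMSO (SD, n = 4 each), with -0.08 ± 0.07 for nilotinib (interval -0.23 to 0.07) and -0.04 ± 0.07 for imatinib against DMSO. A second ATP5MC3 probe set, of mean signal 7937, was lower with nilotinib (-0.34 ± 0.07, adjusted p = 0.000593), so the probe sets of ATP5MC3 disagreed. The pseudogene ATP5MC2P1, whose probe set may share sequence with its parent gene, had 379, 457, 238 and 377 with nilotinib, 302, 219, 303 and 207 with imatinib and 81.1, 201, 134 and 131 with DMSO. It rose by 1.33 ± 0.24 with nilotinib (adjusted p = 0.000127) and by 0.88 ± 0.24 with imatinib (adjusted p = 0.00700).

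The window of ATP5MC1, the lowest complex V member with nilotinib, at chr17:48892537-48892836 (plus strand) of GRCh38.p14 held none of the 3 motifs.
ATP5MC1: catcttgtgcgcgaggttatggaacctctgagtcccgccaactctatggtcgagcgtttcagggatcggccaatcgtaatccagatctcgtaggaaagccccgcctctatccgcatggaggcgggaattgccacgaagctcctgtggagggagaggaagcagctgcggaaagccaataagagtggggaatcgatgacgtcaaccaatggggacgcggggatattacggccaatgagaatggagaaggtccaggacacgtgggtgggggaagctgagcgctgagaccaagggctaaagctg

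In the F1 head, ATP5F1B, the catalytic beta subunit, had 7058, 6981, 7598 and 7232 with nilotinib, 7713, 8717, 8710.1 and 8581 with imatinib and 10046, 11196, 10388 and 10380.5 with DMSO. The 3 groups did not overlap, and imatinib was in the middle. It fell by 0.54 ± 0.06 with nilotinib (limma adjusted p = 3.42e-07) and by 0.32 ± 0.06 with imatinib (adjusted p = 0.000281). The difference between the drugs, -0.22 ± 0.06 (adjusted p = 0.0189), was lost without nilotinib array 2 or imatinib array 6 (adjusted p up to 0.0576) and after quantile normalization (-0.11, adjusted p = 0.243).

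The alpha subunit ATP5F1A, which alternates with beta in the head, went the other way. It rose by 0.18 ± 0.07 with imatinib (limma adjusted p = 0.0315), with overlapping groups, and the call was lost without imatinib array 7 or 8 or DMSO array 9 or 12 (adjusted p up to 0.102). With nilotinib it gave 0.11 ± 0.07 (adjusted p = 0.145). It was called without DMSO array 11 (adjusted p = 0.0407) and after quantile normalization (0.19, adjusted p = 0.00410). ATP5F1D, the delta subunit of the central stalk, averaged 1370.0 ± 163 with nilotinib, 1822 ± 42.8 with imatinib and 1684 ± 35.9 with DMSO (SD, n = 4 each), lower with nilotinib by -0.41 ± 0.08 against imatinib (adjusted p = 0.00307). Its dimmer probe set, of mean signal 541, gave 0.27 ± 0.19 between the drugs and was not called (adjusted p = 0.401). With the probe sets of a gene averaged, the ATP5F1D call between the drugs was lost. ATP5F1E, the epsilon subunit, rose by 0.18 ± 0.06 with nilotinib (adjusted p = 0.0186, lost without nilotinib array 2 or DMSO array 9, up to adjusted p = 0.0548) and by 0.19 ± 0.06 with imatinib (adjusted p = 0.0230, lost without imatinib array 5 or 7 or DMSO array 9 or 11, up to adjusted p = 0.0949). Outside the F1 head 8 of 10 subunits were lower with nilotinib and 0 higher (median -0.20), where 23.5% of all genes were lower. After quantile normalization 3 of the 10 were (ATP5MC1, ATP5PB and ATP5PF), where 25.9% of all genes were.

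ATP5IF1, the small protein that blocks the synthase when it would run backwards, had 4405, 4259.9, 4087 and 4166 with nilotinib, 4849.6, 4842, 4657 and 4737 with imatinib and 3554, 3647, 3821 and 3994 with DMSO. The 3 groups were apart, with imatinib highest. It rose by 0.35 ± 0.06 with imatinib (limma adjusted p = 0.000105) and by 0.17 ± 0.06 with nilotinib (adjusted p = 0.0177, lost without DMSO array 9 at adjusted p = 0.0570).

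**Figure D3:**
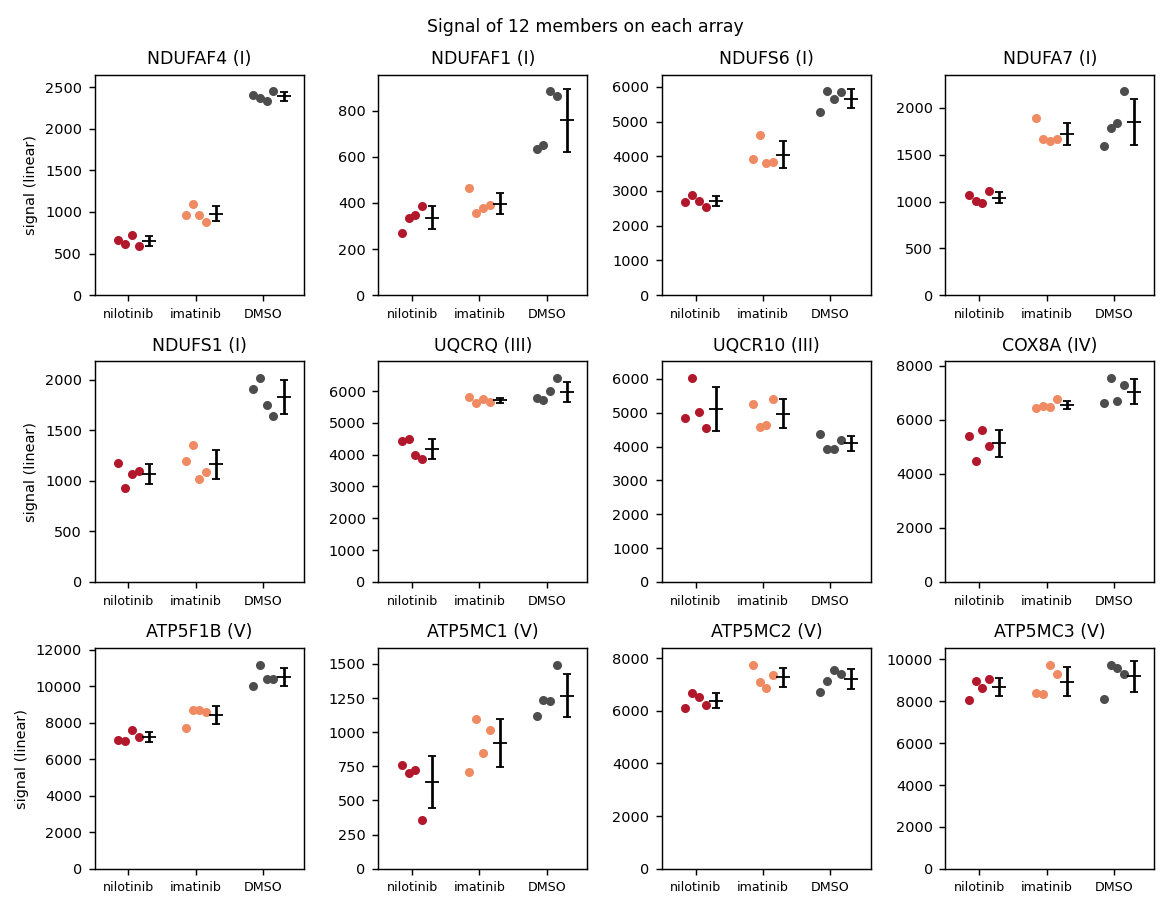
Linear signal (y axis) of 12 members on each array with nilotinib, imatinib and DMSO (x axis); points are arrays and the bar beside them is the mean ± SD of the 4. NDUFAF4 and NDUFS6 are lowest with nilotinib, between with imatinib and highest with DMSO, without overlap, NDUFA7, UQCRQ and COX8A are low with nilotinib alone, UQCR10 is higher with both drugs than with DMSO, and ATP5MC1 has 1 nilotinib array at 353.

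Because array medians moved with the groups, the comparison was repeated after other scalings between arrays. With quantile normalization 26 members were lower with nilotinib and 12 higher, against backgrounds of 25.9% and 24.7% of all genes. Of the 26, 14 were in complex I, 2 in complex III and 5 each in complexes IV and V, and 25 were among the 41 called lower as deposited. With imatinib 7 were lower and 15 higher (backgrounds 16.7% and 18.3%). Between the drugs 15 were lower with nilotinib, 11 of them in complex I, and 0 higher (backgrounds 7.88% and 4.86%).

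Cyclic loess gave 27 members lower with nilotinib where 25.9% of all genes were, 12 lower with imatinib where 18.9% were, and 12 lower with nilotinib against imatinib where 6.1% were. Median centring of the arrays pushed nearly everything down: 66 members were lower with nilotinib (49.2% of all genes), 43 with imatinib (28.4%) and 66 between the drugs (33%). The median of all genes was then -0.37 for nilotinib against DMSO, where it was 0.15 as deposited, 0.00 after quantile normalization and 0.01 after cyclic loess. Relative to that median, complex I with nilotinib lay at -0.48 as deposited and after median centring, at -0.20 after quantile normalization and at -0.25 after cyclic loess. Complex III lay at -0.22 as deposited and at 0.05 after quantile normalization, complex IV at -0.25 and -0.04, and complex V at -0.31 and -0.02.

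After cyclic loess, relative to the median of all genes, complex III with nilotinib lay at 0.04, complex IV at 0.002 and complex V at -0.04. For complexes III and IV the sign of that difference therefore depended on the scaling. Median centring, which moved all genes down, removed no lower call that the other scalings kept. Called lower under all 4 scalings were 23 members with nilotinib against DMSO, 13 of them in complex I, 2 in complex III and 4 each in complexes IV and V, where 20.6% of all genes were. With imatinib 7 members were (NDUFAF4, NDUFAF1, NDUFS1, NDUFS6, UQCR11, ATP5F1B and ATP5PB), where 15.9% of all genes were. The call of ATP5PB, a subunit of the outer stalk of the synthase, was lost without imatinib array 6, 7 or 8 or DMSO array 10, 11 or 12 (adjusted p up to 0.103). Between the drugs 12 members were, 9 of them in complex I, where 5.11% of all genes were. Apart from the complex I genes NDUFAF4, NDUFS6, NDUFA7, NDUFA6, NDUFA13, NDUFAB1, NDUFA2, NDUFB2 and NDUFB11, these 12 were UQCRQ, COX8A and ATP5F1D. Higher calls shared by the values as deposited, quantile normalization and cyclic loess numbered 11 with imatinib and 5 with nilotinib, and 2 and 1 of these held under median centring. Shared higher calls were not counted over all genes. As deposited, 22% of all genes were higher with imatinib and 34.7% with nilotinib. Of the calls given above, quantile normalization also ended those of NDUFV1, NDUFS7, NDUFAB1 and NDUFA6 with imatinib against DMSO. Between the drugs it also ended those of COX5A, COX4I1, ATP5MC2, NDUFB1 and UQCRC1. Cyclic loess ended that of COX5B between the drugs and that of COX4I1 with nilotinib against DMSO, which quantile normalization had kept.

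**Figure D4:**
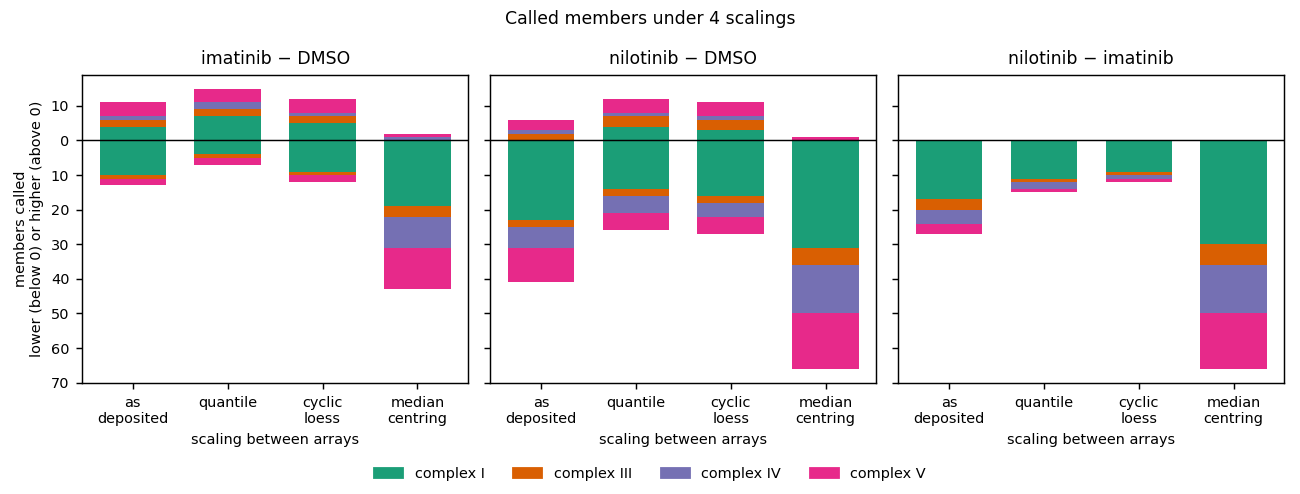
Number of members called lower (bars below 0) and higher (bars above 0) by complex under 4 scalings between arrays (x axis) in each comparison. With nilotinib against DMSO the lower calls number 41 as deposited, 26 after quantile normalization, 27 after cyclic loess and 66 after median centring.

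The mean log2 level of a complex on each array gave the same order for complex I under both scalings examined. Relative to the DMSO mean it was -0.41, -0.41, -0.39 and -0.47 on the nilotinib arrays, -0.12, -0.11, -0.17 and -0.12 on the imatinib arrays and -0.06, -0.02, -0.00 and 0.09 on the DMSO arrays. No array of a group overlapped another group. The mean of all genes tested also kept the groups apart as deposited, but upward, at 0.14 to 0.18 with nilotinib, 0.07 to 0.12 with imatinib and -0.01 to 0.01 with DMSO. After quantile normalization the complex I means were -0.30 with nilotinib and -0.08 with imatinib, still without overlap. The gap of imatinib from DMSO was then narrow, from a highest imatinib array at -0.068 to a lowest DMSO array at -0.060. For complex III the nilotinib mean was -0.11 as deposited and 0.03 after quantile normalization, and for complex V it was -0.12 and -0.03. Complex IV gave -0.06 and -0.05, with nilotinib and DMSO arrays overlapping under both. These arrays also overlapped under both for complex V, and for complex III after quantile normalization only.

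**Figure D5:**
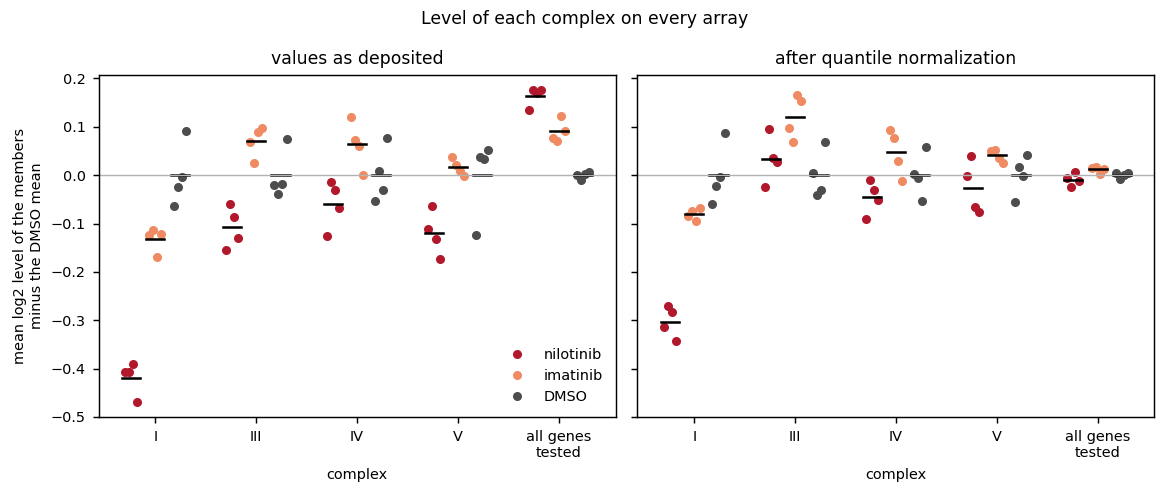
Mean log2(signal + 16) of the tested members of each complex minus the DMSO mean (y axis) on every array, by complex and for all genes tested (x axis), with values as deposited and after quantile normalization. Points are arrays and bars group means; complex I is lowest with nilotinib at -0.42 as deposited and -0.30 after quantile normalization.

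The comparison was also made without the 4 arrays of high actin ratio. Without them 36 of 70 members were lower with nilotinib against DMSO, 22 of them in complex I, and 34 were among the 41. Of all 8021 genes tested 1835 were lower in that fit. With imatinib 7 members were lower without them, in place of 13, and 1417 of all genes were. Between the drugs 17 members were lower, 13 of them in complex I, and 307 of all genes were. With those 4 arrays alone 5 members were lower, all in complex I, and 70 of all genes were.

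Genes around the complexes were counted from a list of 53, of which 39 were tested: 18 were lower and 6 higher with nilotinib against DMSO (23.5% and 34.7% of all genes), 16 were lower and 5 higher with imatinib (17.3% and 22%), and 5 were lower and 1 higher with nilotinib against imatinib (8.22% and 5.82%). The 8 genes for copying and transcribing mitochondrial DNA were the most uniform of these, with 7 lower and 0 higher for each drug against DMSO (medians -0.90 for nilotinib and -0.55 for imatinib). TFAM, the protein that packages mitochondrial DNA and starts its transcription, averaged 619.5 ± 148 with nilotinib, 832 ± 90.6 with imatinib and 1712 ± 97.7 with DMSO (SD, n = 4 each). It fell by 1.47 ± 0.13 with nilotinib (limma adjusted p = 1.51e-08) and by 1.03 ± 0.13 with imatinib (adjusted p = 2.92e-06). POLRMT, the mitochondrial RNA polymerase, fell by 1.25 ± 0.18 with nilotinib and by 0.58 ± 0.18 with imatinib (adjusted p = 1.03e-05 and 0.0143). SSBP1, which binds single-stranded mitochondrial DNA, fell by 0.93 ± 0.06 and by 0.52 ± 0.06 with the same drugs (adjusted p = 1.16e-10 and 7.25e-07). POLG, the mitochondrial DNA polymerase, was the exception and was not called.

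CYCS, cytochrome c itself, averaged 5301 ± 605 with nilotinib, 7654 ± 759 with imatinib and 11709 ± 968 with DMSO (SD, n = 4 each). It fell by 1.14 ± 0.09 with nilotinib against DMSO (limma adjusted p = 1.47e-09), by 0.61 ± 0.09 with imatinib against DMSO (adjusted p = 1.05e-05) and by 0.53 ± 0.09 with nilotinib against imatinib (adjusted p = 0.000629). LRPPRC, which stabilizes mitochondrial messenger RNAs, fell by 0.86 ± 0.06 with nilotinib and by 0.72 ± 0.06 with imatinib (adjusted p = 9.95e-10 and 2.35e-08). SURF1, an assembly factor of complex IV, rose by 0.48 ± 0.12 with nilotinib and by 0.83 ± 0.12 with imatinib (adjusted p = 0.00199 and 1.55e-05). Of the 6 genes tested for complex IV assembly and expression, 4 were lower and 2 higher with each drug. The lower ones beside LRPPRC were SCO2 (-0.89 with nilotinib and -0.59 with imatinib), FASTKD2 (-0.69 and -0.47) and TACO1 (-0.44 and -0.32). FASTKD1 was the other higher one (0.51 and 0.28). Complex II, which feeds electrons from succinate, had SDHC higher with nilotinib (0.22 ± 0.07, adjusted p = 0.0181, lost without nilotinib array 1 or DMSO array 10 at adjusted p up to 0.0619) and with imatinib (0.37 ± 0.07, adjusted p = 0.000552), and SDHD lower with nilotinib (-0.40 ± 0.09, adjusted p = 0.000926). Of the regulators, PPRC1, a coactivator of respiratory genes, fell by 0.75 ± 0.20 with nilotinib (adjusted p = 0.00394). With imatinib it fell by 0.53 ± 0.20, near the threshold (limma adjusted p = 0.0446). The factor NRF1 rose by 0.58 ± 0.13 with nilotinib (adjusted p = 0.00118), and the regulator ESRRA by 0.29 ± 0.12 (adjusted p = 0.0385). Neither was called with imatinib against DMSO. GABPA, GABPB1 and YY1 were not called with either drug against DMSO. Values of these regulators are as deposited, where the median of all genes with nilotinib against DMSO was 0.15.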

How the data were processed

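The authors deposited 1 linear intensity (signal) per probe set and array. MAS5 produced it, per the submitters' processing notes, and its version is not stated there. The 2% trimmed mean of every array was near 500.1, so the values were used as deposited. The 12 arrays were grouped by their titles, and 0 columns were left unmapped.

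Values were taken as log2(signal + 16). Probe sets below the 40th percentile of mean log2 signal were dropped, and the brightest probe set of each gene was kept. A single linear model over all 8021 genes gave each group its own mean (limma 3.58.1, R 4.3.3), with moderated variances that follow the signal and 9 residual degrees of freedom. Benjamini-Hochberg adjustment ran separately in each comparison. The fit was tested on simulated data. Python 3.11.15 and matplotlib 3.10.9 made the figures. Probe sets that name several genes were left out, 11 of them with a name of this kind, such as NDUFS8, UQCRH and COX17. No pairing was used, since replicate numbers are unique to a group. The annotation names no genome build, so only promoter windows carry positions.

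The members, the lists of other genes and markers and the motifs were chosen with earlier results of these data known. Named with values were up to 2 called members per direction, complex and comparison with the largest change and groups that did not overlap, members called in opposite directions with the drugs, the member with the highest signal in each complex, and members chosen from knowledge. NDUFS6, NDUFS7, NDUFAB1, NDUFA6 and NDUFB8, and the members named only beside these, were added after values were seen. Alternatives were other added values, filters, scalings, probe set rules, variance models, subunits alone, only the compared groups, arrays split by the actin ratio, and each array left out.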

Additional observations from a re-analysis of the deposited data

Results flagged for a closer look

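Single arrays stood apart from the other 3 of their group in 8 of the 126 groups of values examined, where chance gives about 1 in 20. On the nilotinib arrays, ATP5MC1 was low on array 4 at 353, beside 704 to 763 on the others. On the imatinib arrays, ATP5F1B was low on array 5 at 7713 (others 8581 to 8717), COX8A was high on array 8 at 6757 (others 6452 to 6497), NDUFA7 was high on array 5 at 1895 (others 1647 to 1669.7) and NDUFS6 was high on array 6 at 4616 (others 3802 to 3924). On the DMSO arrays, NDUFA2 was low on array 9 at 2827 (others 3076 to 3128), UQCR11 was high on array 12 at 6841 (others 6097 to 6172), and the mean log2 level of complex V was low on array 9 at 12.27 (others 12.42 to 12.44).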

How the results depend on the processing

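Member counts stayed within 1.5 times, and complex medians within the spread of a complex level between arrays, under other added values, other filters and only the 2 groups compared. Subunits alone kept the medians within that spread, but had 3 higher calls with nilotinib against DMSO in place of 6. After quantile normalization, imatinib against DMSO had 7 members lower and medians of -0.036 (complex I) and 0.14 (III). Nilotinib against DMSO had 12 higher, 26 lower and medians of -0.20, 0.057, -0.035 and -0.016 (I, III, IV and V). Nilotinib against imatinib had 15 lower and medians of -0.051, -0.059 and -0.056 (III, IV and V). Cyclic loess gave for nilotinib against DMSO 11 higher, 27 lower and medians of -0.24, 0.050, 0.0093 and -0.028, and against imatinib 12 lower and medians of -0.029, -0.045 and -0.041 (III, IV and V). Median centring gave 2 higher and 43 lower for imatinib (medians -0.32, -0.13, -0.19 and -0.23), 1 higher and 66 lower for nilotinib (-0.85, -0.59, -0.63 and -0.68), and 66 lower and 2722 genes called between the drugs (-0.57, -0.44, -0.44 and -0.45). The cause was not tested.

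Under median centring these values changed sign. For imatinib against DMSO they were ATP5F1A -0.042, ATP5F1E -0.036, ATP5MC2 -0.21, COX6A1 -0.21, NDUFA1 -0.23, NDUFB2 -0.048 and UQCRB -0.025. For nilotinib against DMSO they were ATP5F1A -0.41, ATP5F1E -0.34, ATP5IF1 -0.35, COX7A2L -0.41, NDUFB1 -0.48, UQCR10 -0.21 and UQCRB -0.37, and between the drugs COX7A2L -0.29 and UQCR10 -0.26. With probe sets of a gene averaged, NDUFA6 with imatinib was 0.080, ATP5MC2 with nilotinib 0.47 and against imatinib 0.078, and NDUFB8 with nilotinib 0.13; the medians of complexes I and III with nilotinib were -0.25 and -0.13. A sign was compared only where a value was called under at least 1 of the settings.

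Without a variance trend 6 members were higher and 7 lower with imatinib, and 12 lower between the drugs. Without the arrays of high actin ratio 7 were lower with imatinib, the complex III median with nilotinib was 0.063, and between the drugs 414 genes and 17 members (lower) were called, with medians of -0.34 (I) and -0.10 (V). Only those arrays gave 101 genes, 5 members lower and a complex III median of -0.10.

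Leaving out 1 array at a time, members lower with imatinib numbered 8 to 14 (8 without DMSO array 12) and the complex I median ran between -0.12 and -0.036. Members higher with nilotinib numbered 3 to 7 (3 without DMSO array 9), and its medians ran between -0.36 and -0.27 (I) and between -0.11 and -0.0044 (III). All genes called between the drugs numbered 694 to 1052 (694 without imatinib array 6). No paired analysis was possible because the groups share no replicate number. Counting NDUFA4 with complex IV was not run, since no probe set here names that gene alone. With 4 arrays a group, small changes cannot be told from the spread.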
